A study of Saccharomyces cerevisiae with 48 samples.

Results

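In an oscillating budding yeast culture given phenelzine, genes of the mitochondrial ribosome and genes of ribosome biogenesis peaked in turn. The data described here are the 12 arrays near those peaks in 3 successive cycles, out of 48 arrays in all. The 6 arrays of the ribosome biogenesis phase are phenelzine replicates 7 and 8, 19 and 20, and 32 and 33. The 6 arrays of the mitochondrial phase are replicates 4 and 5, 15 and 16, and 27 and 28. These arrays were chosen by the measured means of the 2 gene groups, so the contrast between the phases is a description and carries no test.

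The strain was Saccharomyces cerevisiae IFO0233, grown in a fermenter first as a batch and then with continuous addition and removal of medium, conditions under which respiration of the whole culture oscillates. Samples were taken every 4 min, 37 of them labelled phenelzine and 11 labelled control, and total RNA was hybridised to Affymetrix Yeast 2.0 arrays. Phenelzine, an inhibitor of monoamine oxidase, was given once 1 cycle had been sampled, to lengthen the period of the oscillation. Its dose is not given in the sources used here. All samples came from 1 culture of 1 strain. The control samples are the earlier part of the same time course, from 44 to 4 min before the first phenelzine sample, so treatment and time cannot be told apart. The p-values below therefore measure the spread between neighbouring samples of this culture. A lower signal can reflect fewer cells of a kind or less RNA per cell, and these cannot be told apart here.

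Yeast makes cytosolic ribosomes in the nucleolus, where RNA polymerase I transcribes the precursor of the ribosomal RNAs and a large set of assembly factors fold, modify and cut it. The genes of these factors, often called the ribosome biogenesis regulon, are transcribed together under nutrient signalling, with the repressors Tod6 and Dot6 binding many of their promoters. Mitochondria have their own ribosomes, whose proteins are encoded in the nucleus by a separate set of genes and which translate a few respiratory subunits.

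Times are counted from the first sample with phenelzine. Cycle 1 set the arrays at 24 and 28 min against those at 12 and 16 min. Cycle 2 set 72 and 76 min against 56 and 60 min. Cycle 3 set 124 and 128 min against the arrays 20 min earlier. The centres of the phases lay 12, 16 and 20 min apart in the 3 cycles. In the control, the arrays at -20 and -16 min were set against those at -32 and -28 min, which lie 44 min before the arrays of cycle 1 and 12 min apart. A step is the difference on the log2 scale, ribosome biogenesis phase minus mitochondrial phase, with the 2 arrays of each phase averaged. A probe set is said to have moved where its step was at least 0.5 (1.41-fold) in the same direction in each of the 3 cycles.

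**Figure D1:**
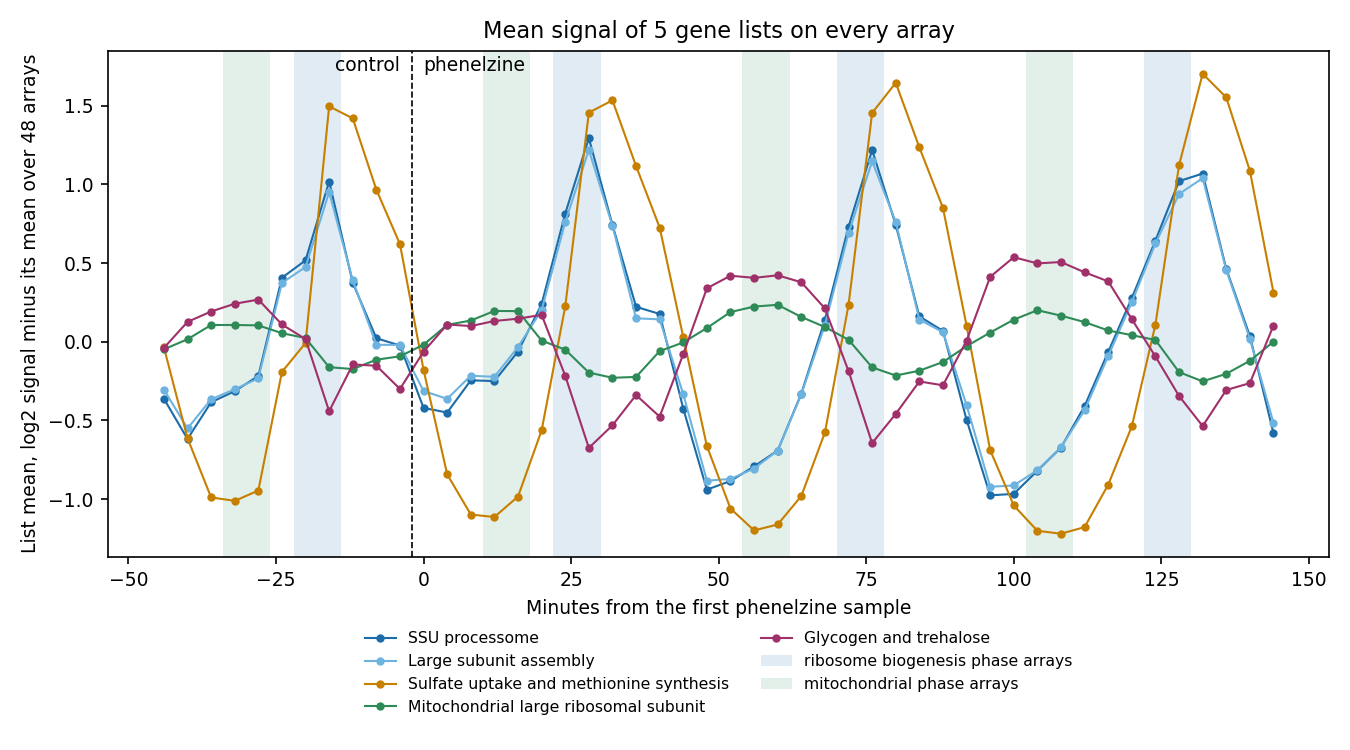
Mean log2 signal of 5 gene lists on each of the 48 arrays, minus the list's mean over all arrays (vertical axis), against minutes from the first phenelzine sample (horizontal axis). Blue bands mark the arrays of the ribosome biogenesis phase and green bands those of the mitochondrial phase, and the dashed line separates control from phenelzine samples. In cycle 3 the SSU processome mean went on to its highest value at 132 min, 1 array after the phase.

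The phases differed somewhat in overall signal as deposited, and the arrays of the third cycle stood apart in 1 spiked RNA control. The median signal of all probe sets was 36.9 to 64.9 in the ribosome biogenesis phase and 56.4 to 74.4 in the mitochondrial phase. The spiked dap transcript had a 3' over 5' log2 ratio of 2.60 to 2.74 in the ribosome biogenesis phase and 2.16 to 2.31 in the mitochondrial phase of cycle 3. In cycles 1 and 2 that ratio was 1.64 to 1.77 in the ribosome biogenesis phase and 1.43 to 1.64 in the mitochondrial phase. Fission yeast probe sets, which have no target here, had a median log2 signal as deposited of 1.74 ± 0.28 in the ribosome biogenesis phase and 2.04 ± 0.12 in the mitochondrial phase (SD, n = 6 each). Array titles carry the suffix 02 for phenelzine replicates 19 and 20 and 01 for the other arrays of the 2 phases. The suffix thus follows phase in cycle 2, and what it stands for is not given in the sources used here. The part these differences played in the results was not tested. Each step is taken within a cycle, which leaves in place any difference between the arrays of the 2 phases of that cycle.

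The label was first set beside 4 marker genes. They are of the kinds of genes whose means chose the arrays, so they are no independent check of it. UTP21 and NOP53 were higher in the ribosome biogenesis phase in every cycle, and of these UTP21 moved. UTP21, a subunit of the UTP-B complex of the small subunit processome, had log2 signals of 9.36, 9.71 and 10.61 (lowest, median and highest of 6 arrays) in the ribosome biogenesis phase and 6.66, 7.28 and 8.54 in the mitochondrial phase. The phases did not overlap, and the steps of 1.82, 3.08 and 2.34 average 2.41 ± 0.63 (SD, n = 3 cycles), or 5.33-fold. NOP53, a factor of late large subunit maturation, had 9.71, 10.02 and 10.43 in the ribosome biogenesis phase and 8.85, 9.08 and 9.98 in the mitochondrial phase. Its phases overlapped through cycle 1, where the step was 0.34, and its mean step was 0.75 ± 0.37. From the highest step, UTP21 ranked 2 among 61 genes of small subunit assembly and NOP53 61 among 70 of large subunit assembly.

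The other two markers went against the name of the mitochondrial phase. MRP4, a protein of the small subunit of the mitochondrial ribosome, had 10.76, 10.93 and 11.02 in the ribosome biogenesis phase and 10.57, 10.93 and 11.03 in the mitochondrial phase. Its steps were 0.16, 0.00 and 0.01. RSM22, listed with the same subunit, had 8.26, 9.10 and 9.54 in the ribosome biogenesis phase and 7.70, 8.65 and 9.13 in the mitochondrial phase. Its steps of 0.46, 0.80 and 0.00 were never under 0, and its phases overlapped. Among 34 members of the small subunit list, RSM22 ranked 1 and MRP4 ranked 3 from the highest step.

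**Figure D2:**
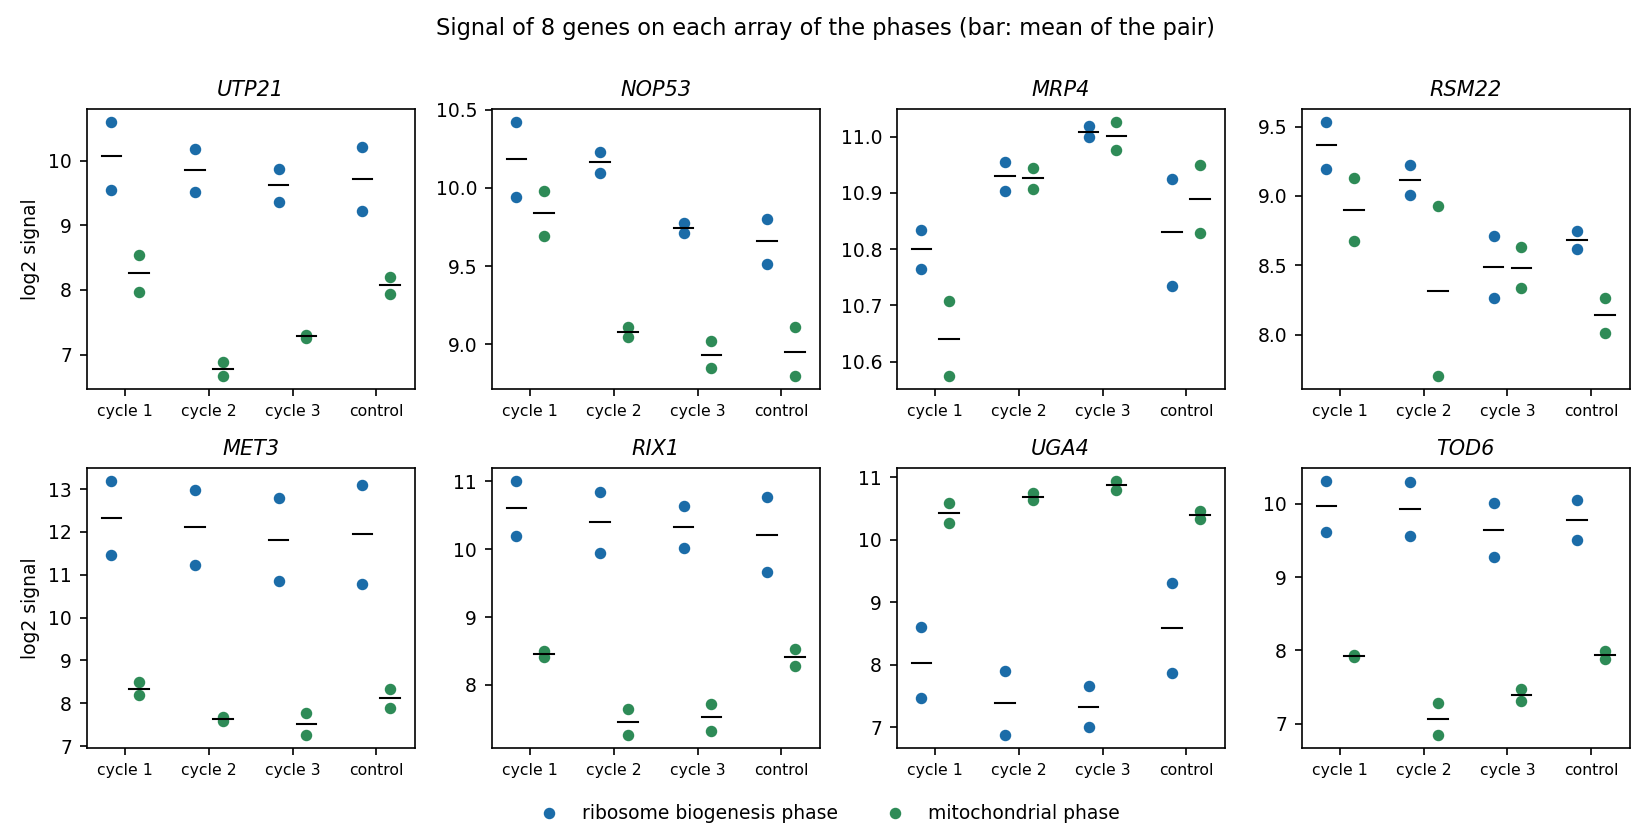
Log2 signal (vertical axes) of 8 genes on each array of the 2 phases, by cycle and in the control (horizontal axes), with the ribosome biogenesis phase in blue to the left of the mitochondrial phase in green; points are arrays and bars are the mean of a pair. UTP21, MET3, RIX1 and TOD6 are higher in the ribosome biogenesis phase in every cycle and in the control, UGA4 is lower, and the steps of MRP4 and RSM22 are not under 0 in any phenelzine cycle. Vertical axes differ between genes and do not start at 0.

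As a group, the mitochondrial ribosomal protein genes did follow the label, by small amounts. The mean of the large subunit list lay between 11.21 and 11.41 in the ribosome biogenesis phase and between 11.57 and 11.64 in the mitochondrial phase. The mean of the small subunit list lay between 10.78 and 10.99 in the ribosome biogenesis phase and between 11.01 and 11.20 in the mitochondrial phase. Neither pair of ranges overlaps, as the choice of arrays would give. Of the large subunit genes 41 of 42 had a step under 0, with a median of -0.31, and of the small subunit genes 31 of 34, with a median of -0.30. The median over all probe sets was -0.06. No more than 2 genes of each list moved, so the mitochondrial phase is named here for the time at which these genes were near their highest and not for the size of their change.

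Over all 5372 budding yeast probe sets above background, 523 (9.74%) moved higher and 447 (8.32%) moved lower in the ribosome biogenesis phase. With the signals as deposited, without quantile normalization, 874 moved, of which 40.5% were higher, against 53.9% of 970 here. The arrays were chosen on this contrast, and nothing is read from these shares. A limma fit called 3146 probe sets (58.6%) for the mean of the 3 cycle steps at an adjusted p under 0.05, and nothing is read from that count either. The members just inside the threshold had a smallest cycle step between 0.50 and 0.55, and 121 probe sets just outside it had one between 0.45 and 0.50. Steps of at least 1 (2-fold) in the mean were found for 327 probe sets higher and 159 lower. The moved probe sets stand for 520 genes higher and 445 lower, of which 284 and 70 belong to one of the 34 lists described below.

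The genes of small subunit assembly were higher in the ribosome biogenesis phase almost without exception. Their list, named for the SSU processome, the large particle that forms on the nascent ribosomal RNA, had a mean log2 signal of 10.29 to 10.94 in the ribosome biogenesis phase and 8.83 to 9.58 in the mitochondrial phase. Of 61 genes 58 moved higher and none moved lower, beside 9.74% of all probe sets. The median step was 1.51, with 1.30, 1.73 and 1.61 in the 3 cycles. DHR2, an RNA helicase, is an example of a large step. Its signals were 8.78, 9.47 and 10.40 (lowest, median and highest) in the ribosome biogenesis phase and 6.50, 6.98 and 7.56 in the mitochondrial phase, a mean step of 2.53 ± 0.22 (SD, n = 3 cycles). NOP14, a core factor of the particle, had 9.98, 10.31 and 11.12 in the ribosome biogenesis phase and 7.51, 7.76 and 9.03 in the mitochondrial phase.

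Every measured subunit of the UTP-A, UTP-B and Mpp10 complexes of the particle moved. All 7 genes of the UTP-A complex moved higher, with steps from 1.14 to 1.91, as did all 6 of the UTP-B complex, from 1.50 to 2.41, and all 3 of the Mpp10 complex, from 0.80 to 1.83. RNA helicases of the small subunit pathway had the largest median, 2.25 over 7 genes. One of them, RRP3, was among the 15 largest steps of the whole array, at 2.57 ± 0.74, with 1.79 in cycle 1 and 3.26 in cycle 2. The 3 genes of the list that did not move were RIO1, RRP7 and FCF1. RIO1, a kinase of the last cytoplasmic steps, had steps of 0.12, 0.28 and 0.11, while 7 of the 8 genes of late 40S maturation moved. These modules were defined from textbook knowledge after the values of their lists had been seen.

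Genes of large subunit assembly showed the same pattern at a similar size. Their list mean was 10.51 to 11.10 in the ribosome biogenesis phase and 9.06 to 9.85 in the mitochondrial phase. Of 70 genes 61 moved higher, beside 9.74% of all probe sets, and none lower. The median step was 1.42, with 1.11, 1.69 and 1.57 in the 3 cycles. RIX1, which gives its name to a complex that acts in the nucleoplasm on the maturing large subunit, had 9.95, 10.42 and 11.01 in the ribosome biogenesis phase and 7.26, 7.69 and 8.50 in the mitochondrial phase. Its step of 2.63 ± 0.42 was the largest of the list. DBP3, a DEAD-box RNA helicase, had 10.81, 11.31 and 11.80 against 8.49, 8.66 and 9.59. All 9 large subunit RNA helicases moved, with steps from 1.06 to 2.43, and all 3 genes of the Nop7 complex, from 1.70 to 2.27.

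The large subunit genes that did not move include the giant remodelling ATPase of the pathway. REA1 had steps of -0.10, 0.30 and 0.17, whereas the other 4 genes of its group, the GTPases NOG1, NOG2, NUG1 and LSG1, moved. LOC1 had steps of -0.10, 0.49 and 0.53. TIF6, which keeps the subunits apart until the last step, had the lowest step of 6 genes of 60S export and cytoplasmic maturation, at 0.48. The others that did not move were RSA3, NOP16, RSA1, SSF2, RRP15 and NOP53.

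Small nucleolar ribonucleoproteins guide the chemical modification of ribosomal RNA. Of 13 of their genes 11 moved higher, beside 9.74% of all probe sets, with a median step of 1.19. NOP1, the methyltransferase of the C/D class, had a step of 1.22 ± 0.17, and CBF5, the pseudouridine synthase of the H/ACA class, 1.12 ± 0.29. SNU13, an RNA-binding protein of the C/D class, had 12.92, 13.01 and 13.16 in the ribosome biogenesis phase and 11.23, 11.59 and 12.28 in the mitochondrial phase. HIT1 and NOP10 did not move, with mean steps of 0.35 and 0.73.

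The polymerases split by role. All 7 RNA polymerase I subunits moved higher, beside 9.74% of all probe sets. Their steps had a median of 1.56 and a range from 0.97 to 2.49. RPA49 had the largest, with 10.84, 11.19 and 11.67 in the ribosome biogenesis phase and 8.28, 8.56 and 9.55 in the mitochondrial phase. Of 10 RNA polymerase III subunits 7 moved, with a median of 0.84. RPC19 and RPC40, shared by polymerases I and III but not II, moved. No gene of TFIIIC or TFIIIB, the initiation factors of polymerase III, moved, and their median steps were -0.14 over 6 genes and -0.22 over 2. For so few genes that count is near the shares of all probe sets, 9.74% higher and 8.32% lower. The initiation factors of polymerase I differed among themselves. Of 7 genes 3 moved, and RRN11 had a step of 2.30 ± 0.47 while the lowest step among them was -0.20.

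The RNA exosome, which trims the precursor from its 3' end, moved less than the assembly factors. Its 9 core subunits had a median step of 0.46. Of them 1 moved, a share near the 9.74% of all probe sets that moved higher. The helicase MTR4, which feeds the exosome, had 10.21, 10.50 and 11.03 in the ribosome biogenesis phase and 8.70, 8.77 and 9.49 in the mitochondrial phase. AIR1, a zinc-knuckle partner of MTR4 in the TRAMP complex, had a step of 1.73 ± 0.17. Its paralog AIR2 had steps of -0.05, -0.00 and -0.09.

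Among 14 regulators of these genes 3 moved higher, beside 9.74% of all probe sets, and none lower. The median step of the regulators was 0.06, which is -0.04 with the signals as deposited. TOD6, a repressor that binds the PAC element of ribosome biogenesis promoters, had 9.28, 9.82 and 10.32 in the ribosome biogenesis phase and 6.84, 7.39 and 7.94 in the mitochondrial phase. The step of TOD6, 2.39 ± 0.43 or 5.25-fold, was close to the 2.41 of UTP21. DOT6, its paralog and also a repressor of these promoters, had 10.60, 10.69 and 10.75 in the ribosome biogenesis phase and 10.90, 11.09 and 11.26 in the mitochondrial phase. Its steps of -0.29, -0.39 and -0.50 were all under 0, and its phases did not overlap. IFH1, the coactivator of ribosomal protein genes, had a step of 0.96 ± 0.09, and SCH9, a kinase of the TOR pathway, 0.60 ± 0.08. SFP1, an activator of the regulon, had steps of -0.33, -0.15 and -0.11, and STB3, which binds the RRPE element, had 0.09, 0.06 and 0.05. MAF1, the repressor of RNA polymerase III, had -0.72, -0.41 and -0.42. The steps of FHL1, RAP1, HMO1, TOR1, TOR2 and CRF1 lay between -0.61 and 0.38 in every cycle, and ABF1 had 0.16, 0.43 and 0.50.

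Paralogs with different steps were found in other lists as well, in pairs picked after their values had been seen. SSF1, a large subunit factor, had a step of 2.41 ± 0.51, and SSF2 0.53 ± 0.04. URA7, a CTP synthase, had 11.48, 11.92 and 12.19 in the ribosome biogenesis phase and 8.91, 9.27 and 10.03 in the mitochondrial phase, while URA8 had a mean step of -0.15. LEU9, an isopropylmalate synthase, had 2.03 ± 0.29, and LEU4 0.02 ± 0.06. BAT1, the mitochondrial branched-chain aminotransferase, had 1.68 ± 0.32, and the cytosolic BAT2 -0.25 ± 0.24. Other pairs had like steps, as in GSY1 and GSY2, of glycogen synthesis, which both moved, with -1.06 ± 0.16 and -1.04 ± 0.11. Similar sequences can share signal on an array, which would make the steps of a pair more alike.

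**Figure D3:**
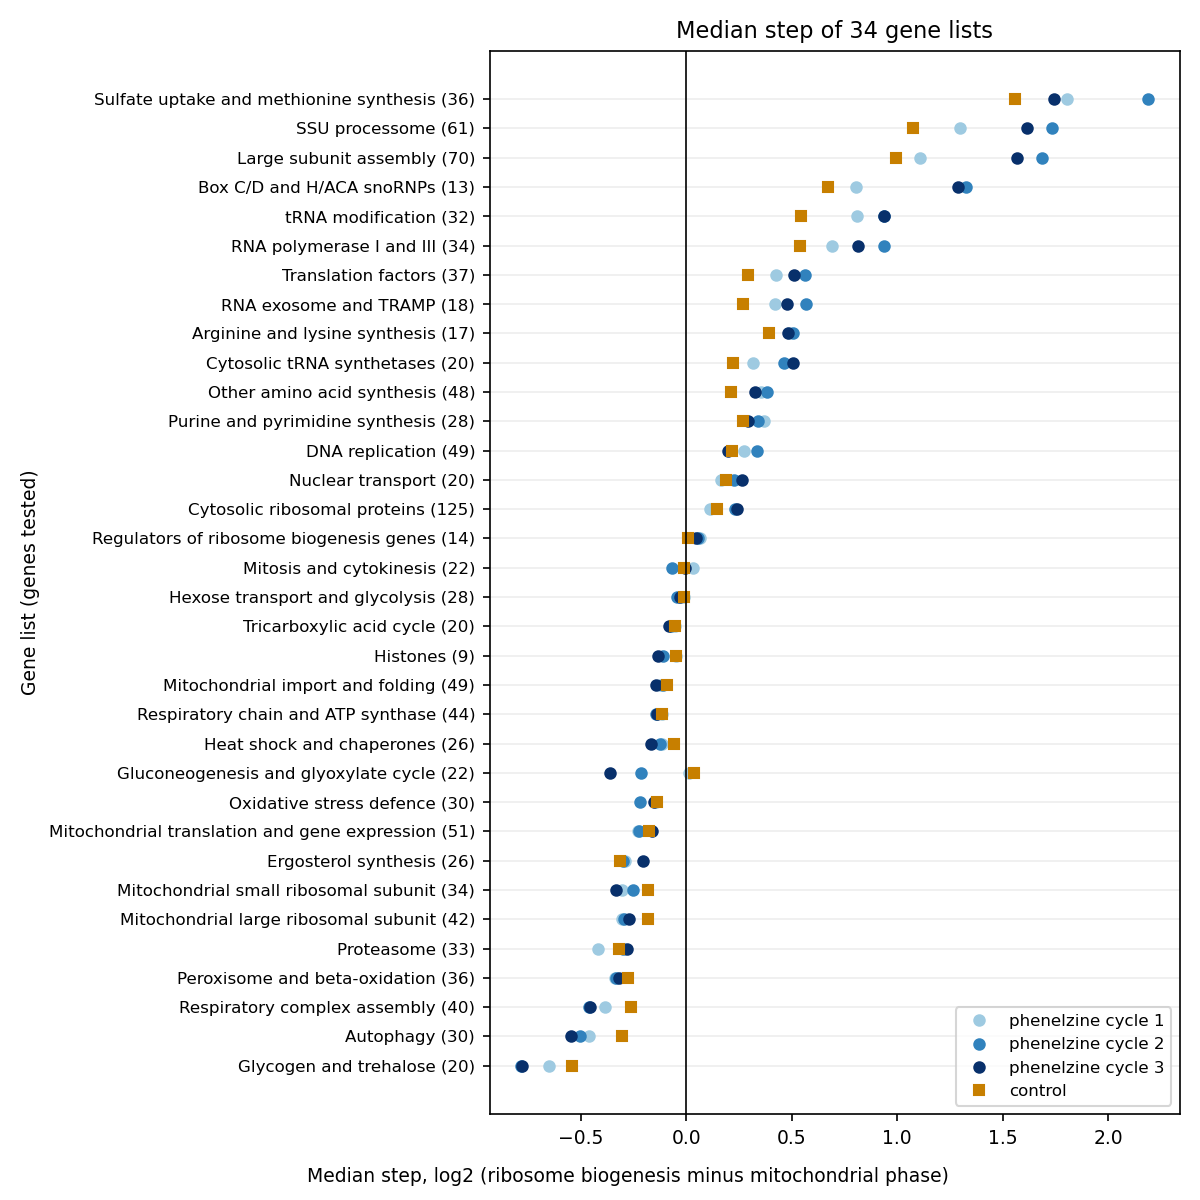
Median step (log2, ribosome biogenesis phase minus mitochondrial phase, horizontal axis) of 34 gene lists (vertical axis, genes tested in brackets), for each phenelzine cycle (circles) and for the control (squares). Lists of ribosome assembly and of sulfur metabolism lie furthest right, and glycogen and trehalose metabolism lies furthest left.

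The machinery of translation moved less than the assembly of ribosomes, read beside the 9.74% of all probe sets that moved higher. Of 32 tRNA modification genes 25 moved higher, with a median step of 0.87. DUS3, a dihydrouridine synthase, had 9.83, 10.25 and 10.67 in the ribosome biogenesis phase and 7.61, 7.72 and 8.32 in the mitochondrial phase. GCD10, a subunit of the tRNA adenosine methyltransferase, had a step of 2.05 ± 0.44. Of 37 translation factor genes 12 moved, with a median of 0.51. Among the 12 are GCD10 and GCD14, which the tRNA modification list also holds. In initiation factor 3, 3 of 6 genes moved, with RPG1 at 1.02 ± 0.19, whereas no gene of 6 for elongation moved. Of 20 cytosolic tRNA synthetases 8 moved, with a median of 0.41, among them KRS1 at 1.44 ± 0.41 and WRS1 at 1.08 ± 0.14.

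Ribosomal protein genes themselves scarcely moved. Of 125 probe sets for cytosolic ribosomal proteins 120 had a step above 0, but the median was 0.19, against -0.06 over all probe sets. Only 2 moved higher, RPL13A and RPS9A, beside 9.74% of all probe sets. RPL13A had 12.90, 13.11 and 13.27 in the ribosome biogenesis phase and 11.61, 11.97 and 12.53 in the mitochondrial phase. Signals of this list were bright, with a mean of 13.29 in the ribosome biogenesis phase and 13.05 in the mitochondrial phase. Many ribosomal proteins come from gene pairs of near-identical sequence, whose signals may be shared.

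Genes of sulfur metabolism, a group the choice of arrays did not consider, were among those with the largest steps of the array. Yeast takes up sulfate, activates it, reduces it to sulfide and builds sulfide into homocysteine and methionine, under the activator Met4 and its DNA-binding partners. Of 36 genes 29 moved higher, beside 9.74% of all probe sets, and none lower, and the median step was 1.94. All 10 genes of sulfate uptake and reduction moved, with steps from 1.68 to 4.26. MET3, the ATP sulfurylase that activates sulfate, had 10.86, 12.12 and 13.20 in the ribosome biogenesis phase and 7.25, 7.72 and 8.50 in the mitochondrial phase. Its step of 4.26 ± 0.25 is 19.2-fold. MET14, the next kinase of the pathway, had a step of 4.03 ± 0.24, MET16, the reductase after it, 3.58 ± 0.34, and MET1, needed to make the siroheme of sulfite reductase, 3.98 ± 0.19.

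Uptake of methionine moved with sulfate reduction. MUP1, the high-affinity methionine permease, had 10.17, 11.56 and 12.58 in the ribosome biogenesis phase and 7.39, 7.83 and 8.09 in the mitochondrial phase. SUL2, a sulfate permease, had a step of 3.20 ± 0.25. MET32, a DNA-binding partner of Met4, had 3.56 ± 0.37, and its paralog MET31 had steps of -0.03, -0.11 and 0.22. STR3, which makes homocysteine from cystathionine, had 3.53 ± 0.41.

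The later steps of methionine synthesis were uneven. MET17, which joins sulfide to acetylhomoserine, had a step of 1.00 ± 0.10. MET6, the methionine synthase, had 0.06, 0.04 and 0.04. In the homoserine branch, HOM3, the aspartate kinase at its entry, had 2.06 ± 0.19, while HOM2 and HOM6 had -0.18 ± 0.07 and -0.09 ± 0.04. The 7 genes that did not move were HOM2, HOM6, STR2, MET31, MET6, CBF1 and SAM2.

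Within the ribosome biogenesis phase the sulfur list differed between the 2 arrays of each cycle more than the ribosome lists did. Its mean was higher on the later than on the earlier array of the phase by 1.16 ± 0.12 (SD, n = 3 cycles), compared with 0.45 ± 0.06 for the SSU processome list and 0.41 ± 0.08 for large subunit assembly. In the mitochondrial phase the later array differed from the earlier by 0.05 ± 0.07 for the sulfur list. The list reached its highest mean 6 min after the centre of the ribosome biogenesis phase in each cycle. The SSU processome list did so 2, 2 and 6 min after it.

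One gene without a known function exceeded all of these. YKL068W-A, a short open reading frame, had 9.87, 11.19 and 12.09 in the ribosome biogenesis phase and 5.70, 6.14 and 6.75 in the mitochondrial phase, a step of 4.99 ± 0.30. In the ribosome biogenesis phase it was higher on the later array of every cycle, by the values 10.48 and 12.00, 10.49 and 12.09, and 9.87 and 11.88. ATC1 and GFD2, which belong to none of the lists, had steps of 2.69 ± 0.39 and 2.58 ± 0.12.

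Amino acid and nucleotide synthesis moved in part, read beside the 9.74% of all probe sets that moved higher. Of 17 arginine and lysine genes 6 moved higher and 1 lower, and of 48 genes for other amino acids 14 moved higher and none lower. ARG3, the ornithine carbamoyltransferase, had 12.67, 12.99 and 13.26 in the ribosome biogenesis phase and 10.36, 10.66 and 11.45 in the mitochondrial phase. LYS5, which activates an enzyme of lysine synthesis, was the gene that moved lower, with a step of -0.65 ± 0.09. SER33, the first enzyme of serine synthesis, had a step of 1.95 ± 0.16. Of 28 purine and pyrimidine genes 9 moved higher, among them IMD4, an IMP dehydrogenase of GTP synthesis, at 1.94 ± 0.03, and URA1, of pyrimidine synthesis, at 1.39 ± 0.22. The arginine and lysine list was highest later than the ribosome lists, 14 min after the centre of the phase in each cycle.

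Beside 9.74% of all probe sets, 6 of 20 nuclear transport genes moved higher. They include the importins KAP104, KAP123 and PSE1, whose known cargoes include ribosomal or RNA-binding proteins, with steps of 1.09 ± 0.31, 0.97 ± 0.18 and 0.95 ± 0.18. Of 49 DNA replication genes 8 moved higher, beside the same 9.74%. CDC6, which loads the replicative helicase, had a step of 1.22 ± 0.20, and MCM5, a subunit of that helicase, 0.87 ± 0.15. No gene of 9 for histones or of 22 for mitosis and cytokinesis moved, beside 9.74% of all probe sets higher and 8.32% lower. With 9 genes the count for histones says little.

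Few mitochondrial genes moved. Of 42 large subunit genes MHR1 and MRPL38 moved, and of 34 small subunit genes MRPS17 and RSM25. MHR1, known also for mitochondrial DNA recombination, had 10.87, 11.01 and 11.36 in the ribosome biogenesis phase and 11.51, 11.76 and 11.80 in the mitochondrial phase, a step of -0.65 ± 0.06. MRPS17 had a step of -0.65 ± 0.16. Of 51 genes of mitochondrial translation and gene expression 3 moved lower and 1 higher, beside 8.32% and 9.74% of all probe sets. RRF1, the ribosome recycling factor, had -0.68 ± 0.14, whereas MRS2, a magnesium channel needed for splicing in mitochondria, had 9.02, 9.35 and 9.50 in the ribosome biogenesis phase and 8.45, 8.52 and 8.61 in the mitochondrial phase.

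Of 40 genes for assembly of the respiratory chain 8 moved lower, beside 8.32% of all probe sets, with a median step of -0.43. COQ4 and COQ3, of ubiquinone synthesis, had steps of -0.99 ± 0.14 and -0.90 ± 0.11, and SCO2, linked to copper delivery to cytochrome oxidase, had -0.96 ± 0.11. None of 35 subunits of respiratory complexes II to V moved, and their median was -0.13. The list of the respiratory chain and ATP synthase had a median of -0.14, which becomes 0.00 with the signals as deposited and 0.09 with arrays centred on their medians. Its 3 genes that moved lower were CYC7, NDE2 and STF2. CYC7, the minor form of cytochrome c, had 8.45, 9.30 and 10.30 in the ribosome biogenesis phase and 11.38, 11.79 and 11.97 in the mitochondrial phase, a step of -2.33 ± 0.16. CYC1, the major form, had -0.17 ± 0.02. NDE2, an external NADH dehydrogenase, had -1.23 ± 0.21, and its paralog NDE1 -0.01 ± 0.00.

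No gene of 49 for import and folding moved lower, beside 8.32% of all probe sets. PAM18, a subunit of the import motor, moved higher by 0.54 ± 0.03. Of 20 tricarboxylic acid cycle genes 2 moved higher and none lower, a share near the 9.74% of all probe sets that moved higher. MAE1, the malic enzyme, had a step of 1.40 ± 0.32. The median of that list was -0.08, and it is 0.08 with the signals as deposited and 0.17 with arrays centred on their medians.

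The lowest steps were found mostly outside the mitochondrial lists. SPG1, known for survival in stationary phase, had 5.26, 5.77 and 6.71 in the ribosome biogenesis phase and 7.96, 9.75 and 10.17 in the mitochondrial phase, a step of -3.46 ± 0.69. UGA4, the permease for gamma-aminobutyrate, had 6.87, 7.57 and 8.60 in the ribosome biogenesis phase and 10.27, 10.69 and 10.94 in the mitochondrial phase. PUT1, the proline oxidase of mitochondria, had a step of -2.38 ± 0.15. The phases did not overlap for any of these 3 genes. RTC3, FMP45 and YRO2 had steps of -3.29 ± 0.23, -2.92 ± 0.46 and -2.63 ± 0.10. SDP1, a MAP kinase phosphatase of stress, had -2.14 ± 0.22, and IGD1, an inhibitor of glycogen debranching, -1.99 ± 0.29. SPR2 and YLR012C, with mean log2 signals of 3.42 and 3.49, are close to the background of 3.01.

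Reserve carbohydrate genes were lower in the ribosome biogenesis phase. Of 20 genes of glycogen and trehalose metabolism 12 moved lower, beside 8.32% of all probe sets, and none higher. Their median step was -0.78. All 5 genes of glycogen synthesis moved, from -1.26 to -0.82, as did all 4 of trehalose synthesis, from -1.24 to -0.70. GLC3, the glycogen branching enzyme, had 11.19, 12.03 and 12.42 in the ribosome biogenesis phase and 12.90, 13.22 and 13.31 in the mitochondrial phase. TPS1, of trehalose synthesis, had 10.65, 11.27 and 11.67 against 11.91, 12.55 and 12.79. Enzymes that break these stores down differed among themselves. GPH1 and GDB1, of glycogen breakdown, did not move, with steps of -0.38 ± 0.12 and -0.60 ± 0.27, while NTH1, the neutral trehalase, had -0.83 ± 0.09. The list's mean changed by -0.39 ± 0.12 between the earlier and the later array of the ribosome biogenesis phase.

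Autophagy, peroxisomal and stress genes moved in part, read beside the 8.32% of all probe sets that moved lower. All 30 autophagy genes had a step under 0, and 10 moved lower. ATG8, the protein that builds the autophagosome membrane, had 9.79, 10.40 and 11.08 in the ribosome biogenesis phase and 11.21, 11.51 and 11.65 in the mitochondrial phase. Of 36 peroxisome and beta-oxidation genes 11 moved lower, with FOX2, of beta-oxidation, at -1.14 ± 0.12. PEX21, a cofactor of peroxisomal import, moved the other way by 2.49 ± 0.22. Of 33 proteasome genes 3 moved lower, RPN12, RPN6 and RPN11, and 32 had a step under 0, so the share of proteasome genes that moved was near that of all probe sets. HSP42, HSP30 and HSP104 were 3 of the 4 heat shock genes of 26 that moved lower, with steps of -1.78 ± 0.15, -1.51 ± 0.08 and -1.05 ± 0.16, while APJ1 moved higher by 0.63 ± 0.12. Of 30 genes of oxidative stress defence 4 moved lower, among them the catalases CTT1 and CTA1 at -1.51 ± 0.38 and -1.48 ± 0.12, and GRX3 was 1 of 2 that moved higher.

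Other carbon pathways moved little as lists and strongly in single genes, read beside the 8.32% of all probe sets that moved lower. Of 28 hexose transport and glycolysis genes 1 moved, HXT5, a transporter of slow growth, with a step of -1.78 ± 0.09. The median of that list, -0.04, is 0.10 with the signals as deposited and 0.19 with arrays centred on their medians, and that of histones, -0.11, is 0.00 and 0.09. Of 22 gluconeogenesis and glyoxylate cycle genes 4 moved lower and 1 higher. ACS1, the acetyl-CoA synthetase of respiratory growth, had 10.40, 10.52 and 10.67 in the ribosome biogenesis phase and 11.54, 12.51 and 12.89 in the mitochondrial phase. The median of this list was 0.01, -0.21 and -0.36 in the 3 cycles. Its highest mean came 10, 14 and 14 min after the centre of the ribosome biogenesis phase, outside both phases. Of 26 ergosterol synthesis genes 2 moved lower, ERG27 and ERG9, a share near the 8.32% of all probe sets.

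The control cycle, sampled before phenelzine, was used to ask whether the same genes changed between the corresponding arrays. In a limma fit over the 16 arrays of 4 cycles, 552 probe sets (10.3%) were higher and 461 (8.58%) lower in the ribosome biogenesis phase of the control at an adjusted p under 0.05. Earlier inspection of these data had shown that the gene groups peak at these control times, so the lists are not independent evidence there. Of the probe sets that moved higher with phenelzine, 521 of 523 had a control step above 0, compared with 42.5% of all probe sets, and 368 were called higher in the control. That is 70.4% of the moved and 66.7% of the control calls. Of those that moved lower, 440 of 447 had a control step under 0, compared with 57.5% of all, and 191 were called lower, which is 42.7% of the moved and 41.4% of the control calls.

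This count of control calls rests on few arrays. Leaving out control replicate 4 or 8 left no call, and leaving out control replicate 5 left 135, while leaving out control replicate 7 gave 1754. With the signals as deposited 227 were called, of which 91.2% were higher, against 54.5% with quantile normalization. A fit of the 4 control arrays alone made no call.

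In the control 54 of 61 SSU processome genes and 60 of 70 large subunit assembly genes were called higher, beside 10.3% of all probe sets, with median control steps of 1.07 and 0.99. UTP21 had log2 signals of 9.23 and 10.22 in the ribosome biogenesis phase of the control and 7.94 and 8.21 in its mitochondrial phase, a step of 1.65 ± 0.39 (SE, limma adjusted p = 0.020). TOD6 had a control step of 1.84 ± 0.31 (limma adjusted p = 0.011), and DOT6 one of -0.33 ± 0.08 (limma adjusted p = 0.019). Tests on DOT6 and TOD6 thus passed in opposite directions. MRP4 and RSM22 had control steps of -0.06 ± 0.09 and 0.54 ± 0.32, with limma adjusted p of 0.63 and 0.23.

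Of 36 sulfur genes 15 were called higher in the control, although their median control step, 1.56, was the largest of the 34 lists. The 2 control arrays of the ribosome biogenesis phase lay far apart for these genes. MET3 had 10.80 and 13.10 there, which gives a control step of 3.83 ± 0.83 (SE, limma adjusted p = 0.016). Of 20 glycogen and trehalose genes 4 were called lower, of 76 mitochondrial ribosomal protein genes 6, and of 33 proteasome genes 10, beside 8.58% of all probe sets. The share for the mitochondrial ribosomal protein genes was no higher than that of all probe sets. Of 125 cytosolic ribosomal protein probe sets 36 were called higher, beside 10.3% of all probe sets, with a median control step of 0.15.

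**Figure D4:**
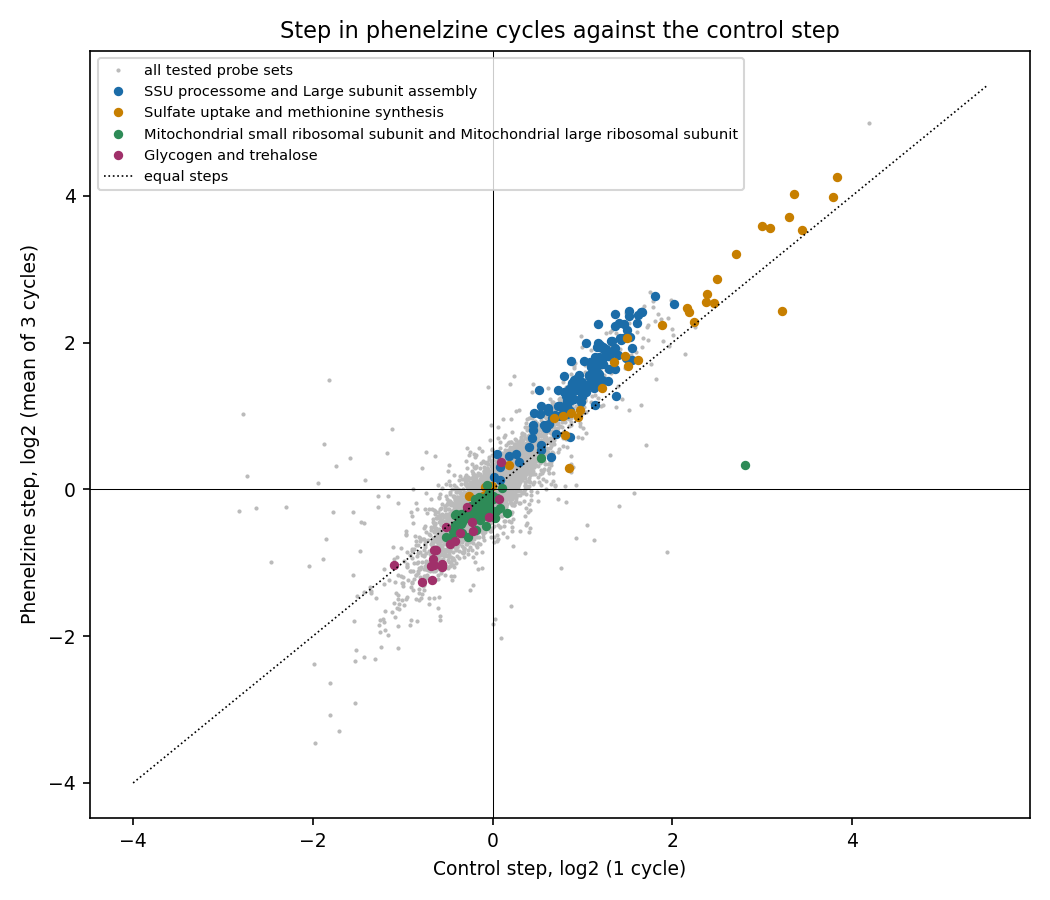
Mean step of the 3 phenelzine cycles (vertical axis, log2) against the control step (horizontal axis, log2) for all 5372 tested probe sets, with members of 4 groups of lists in colour and a dotted line where the steps are equal. Most ribosome assembly genes lie above the line: all 61 small subunit genes and 66 of 70 large subunit genes have a larger mean step with phenelzine than in the control. The phases of phenelzine cycles 2 and 3 lay further apart in time than those of the control. The phenelzine arrays were chosen by the means of ribosome biogenesis genes, which can favour a larger step in these lists.

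The steps were larger with phenelzine than in the control for most assembly genes, but no single gene passed the test of that difference. All 61 SSU processome genes and 66 of 70 large subunit assembly genes had a mean phenelzine step above the control step, compared with 50.9% of all genes. That mean includes cycles 2 and 3, whose phases lay 16 and 20 min apart, against 12 min in the control. In cycle 1, also over 12 min, 50 of 61 and 51 of 70 genes exceeded the control step, compared with 50.5% of all genes. The phenelzine arrays were chosen by the means of ribosome biogenesis and mitochondrial ribosomal protein genes, and the control arrays by a lag of 44 min. That choice can favour a larger phenelzine step, and members of a list vary together, so these counts are a description. In the fit, 0 of 5372 probe sets (0.0%) had an adjusted p under 0.05 for the phenelzine step minus the control step, and 558 had an unadjusted p under 0.05. The difference was 0.76 ± 0.45 for UTP21 (SE, limma adjusted p = 0.57) and 0.55 ± 0.36 for TOD6 (limma adjusted p = 0.62). Across all probe sets the correlation of the mean phenelzine step with the control step was 0.87 (Pearson, 5372 probe sets, which are not independent replicates). The steps of cycle 1 and the control, both over 12 min, differed by a median of 0.15 for the SSU processome list.

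The match between control and cycle 1 by a lag of 44 min was not exact for position in the cycle. On the single array between the phases, the SSU processome list had completed 32.7% of its step in cycle 1 and 65.1% in the control. For the sulfur list these shares were 25.7% in cycle 1 and 45.7% in the control. With a lag of 40 min 76 probe sets passed the test of the difference, and with a lag of 48 min 129 did.

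The steps also differed between phenelzine cycles, mainly on the side of the mitochondrial phase. The SSU processome list had means of 10.70, 10.62 and 10.48 in the ribosome biogenesis phase of cycles 1, 2 and 3, and 9.49, 8.90 and 8.90 in the mitochondrial phase. Its means in the control were 10.41 in the ribosome biogenesis phase and 9.38 in the mitochondrial phase. Large subunit assembly had 10.87, 10.80 and 10.66 in the ribosome biogenesis phase and 9.75, 9.13 and 9.14 in the mitochondrial phase. Of the SSU processome genes 58 of 61, and of the large subunit genes 65 of 70, had a larger step in the third cycle than in the first, compared with 52.6% of all genes. For the sulfur list this held for 18 of 36 genes. No gene of these lists passed the test of the third cycle minus the first. The arrays of each cycle were chosen by the means of ribosome biogenesis genes, and members of a list vary together. The counts for the assembly lists are therefore a description. The spacing of the phases differed between cycles, and the third cycle holds the arrays with the high dap ratio, whose part in the result was not tested.

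That test called 2 probe sets (0.0372%), for DAL2 and GAP1. DAL2, the allantoicase of allantoin breakdown, had 10.88 and 10.83 in the ribosome biogenesis phase of cycle 1, 9.95 and 10.08 in that of cycle 2 and 9.91 and 9.70 in that of cycle 3. Its signals in the mitochondrial phase were 11.25 to 11.53 in all cycles. The step of DAL2 was -0.53, -1.29 and -1.62, and the third minus the first was -1.09 ± 0.14 (SE, limma adjusted p = 0.021). GAP1, the general amino acid permease, had steps of -0.28, -0.67 and -0.81, and the third minus the first was -0.53 ± 0.07 (SE, limma adjusted p = 0.021). For both genes the later cycles were lower in the ribosome biogenesis phase. Their control steps, -0.57 for DAL2 and -0.22 for GAP1, were close to those of cycle 1. Neither call held with the signals as deposited or with no mean-variance trend, and with arrays centred on their medians DAL2 alone was called. Leaving out any of 7 of the 8 arrays in the comparison left no call, and without the other, phenelzine replicate 32, DAL2 was called and GAP1 was not. At an unadjusted p under 0.05 there were 422 probe sets.

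The 6 arrays between the phases, 1, 2 and 3 of them in the 3 cycles, show how the change was spread in time. On their average the SSU processome list had completed 37.8 ± 5.3% of its step (SD, n = 3 cycles) and large subunit assembly 36.7 ± 6.8%. Small nucleolar ribonucleoproteins had completed 46.1 ± 4.1% and the polymerase list 44.1 ± 3.1%. The sulfur list was at 21.3 ± 3.9%, lower than each of these lists in every cycle. The glycogen and trehalose list was at -5.4%, 14.4% and 24.9%, so that in cycle 1 its mean on the array between the phases lay above that of the mitochondrial phase. These shares come from the arrays that the rule leaves out, but the phases that set 0 and 100% come from the rule.

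**Figure D5:**
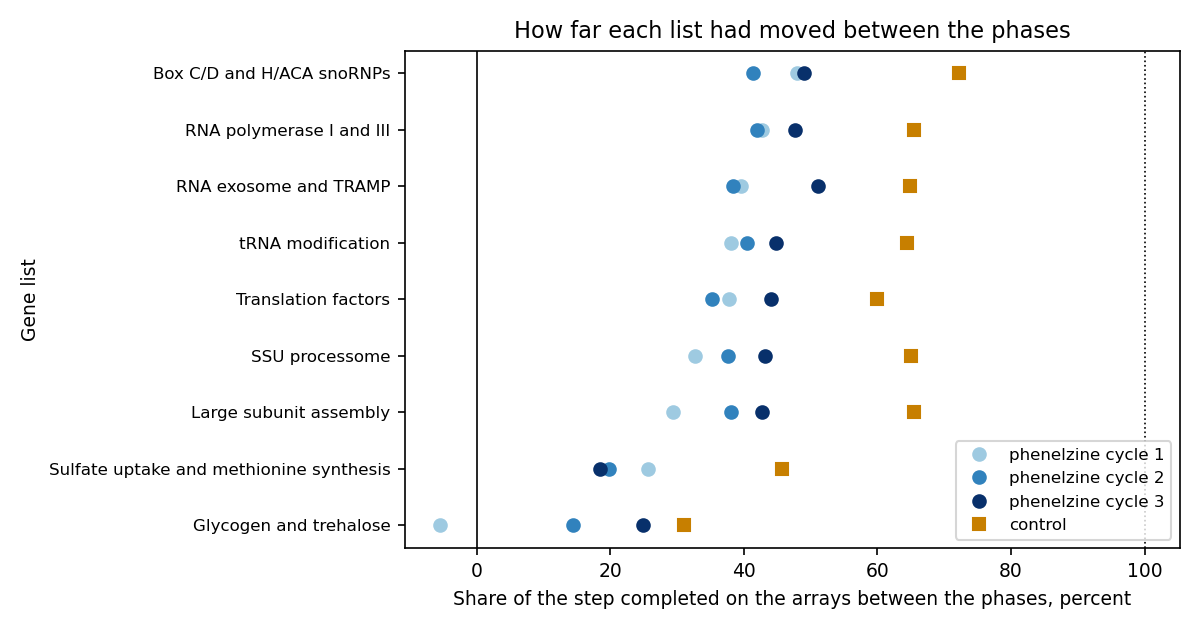
Share of the step (percent, horizontal axis) that the mean of each of 9 lists (vertical axis) had completed on the arrays between the phases, for each phenelzine cycle (circles) and for the control (squares). The solid line marks the level of the mitochondrial phase and the dotted line that of the ribosome biogenesis phase; the sulfur and the glycogen and trehalose lists lie lowest.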

How the data were processed

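RNA from 48 samples of 1 culture was measured on Affymetrix Yeast 2.0 arrays. The deposited values are linear signal intensities per probe set, made by the authors with GCOS, per the submitters' processing notes. No source used here gives its version, algorithm or target value, and any rescaling of arrays is unknown. The number of arrays limits the precision. Gene names came from the platform annotation, updated through the RefSeq gene table. Of the probe sets 5498 had a budding yeast gene and 1747 a fission yeast gene.

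Signals under 1 were set to 1, log2 was taken and the 48 arrays were quantile normalized over all probe sets. Tested were the 5372 budding yeast probe sets with a mean log2 above 3.01, a background level that 90% of the probe sets for fission yeast stay under, and 126 were left out as dim. They stand for 5332 genes, each read from its brightest probe set. Limma 3.58.1 (R 4.3.3; pandas 2.3.3) was fitted with a mean-variance trend to 16 arrays in 8 cells of 2 (8 residual degrees of freedom), with Benjamini-Hochberg adjustment over all 5372 probe sets. The cycle pairs the phases by time. Pairing rests on the sampling times of the labels, and replicate numbers pair nothing else. The fit was tested on simulated data. Alternatives were the deposited scale, median centring, quantile normalization of budding yeast probe sets only, a pseudocount of 50, other filters, single arrays, other lags, no trend and leaving out arrays or cycles.

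The arrays, the 34 lists (1203 genes, 23 entries not found on the array) and the tests were chosen with earlier results of these data known. Named were the markers, the 15 largest steps each way among moved genes, the calls of the tests of differences, all regulators, and per list up to 3 genes with the largest step in the direction of the list's median and the 1 that moved furthest the other way. Other genes named were picked after their values had been seen. The small subunit list of the mitochondrial ribosome holds EHD3 and KGD4, once assigned to that subunit. Promoter sequences and motifs were not analysed here.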

Additional observations from a re-analysis of the deposited data

Results flagged for a closer look

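In 366 groups of 6 arrays, 8 had a highest or lowest array set apart from the others by Dixon's criterion, which chance alone gives in about 1 group in 20. In the ribosome biogenesis phase, phenelzine replicate 33 had a log2 signal of 11.34 for MRPL38 (others 11.84 to 11.99) and 8.55 for LYS5 (others 8.87 to 8.95), and phenelzine replicate 20 had 9.92 for PYK2 (others 9.59 to 9.66). In the mitochondrial phase, phenelzine replicate 28 had 10.77 for RSM25 (others 10.96 to 11.06) and 11.23 for MRPL32 (others 11.44 to 11.49). In the same phase, phenelzine replicate 15 had 9.35 for SRP40 (others 9.60 to 9.75) and phenelzine replicate 5 had 13.12 for KGD2 (others 13.19 to 13.22). Phenelzine replicate 16 had a mean of 11.41 for the list of mitochondrial import and folding, with the others at 11.44 to 11.45.

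The 3' over 5' log2 ratio of the spiked dap transcript reached 2.74 on the phase arrays of the third cycle, above the highest control array at 1.78. It was 2.85 on phenelzine replicate 31, between those phases, and already 2.46 on phenelzine replicate 22, before them. The steps of DAL2 and GAP1 differed between the third and the first cycle, by -1.09 and -0.53.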

How the results depend on the processing

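For the 149 genes named by rule, over other scalings and filters and without 1 cycle, 1257 recomputed steps differed by less than the spread between cycles and 70 by more, and none of these genes that had moved changed sign. Of list medians 279 changed by less than that spread and 86 by more, as did 33 and 20 of the shares completed between the phases. At a threshold of 1.0 the moved probe sets number 334, and 4175 with steps of any size the same way in every cycle. Leaving out 1 cycle gives 1048 to 1240. For the phenelzine step limma called 2091 with the signals as deposited, of which 27.5% were higher against 41.8% with quantile normalization, and 2408 to 3045 without 1 cycle. Over the 12 arrays a fit with the cycle as a replicate block called 3532 and an unpaired fit 3281. The control step had 227 calls with the signals as deposited, 0 from the control arrays alone, 448 with a lag of 48 min (300 higher, 148 lower), 1346 with a lag of 40 min (40.9% higher), and 0 to 1754 without 1 control array. The phenelzine step minus the control step had 76 calls with a lag of 40 min, 129 with a lag of 48 min, 0 to 1 without 1 control array or cycle, and 0 for the first cycle alone. The third cycle minus the first had 0 with the signals as deposited, 1 with arrays centred on their medians, 0 with no mean-variance trend, and 0 to 2 without 1 array, and the second minus the first had 4. A lone array of a cell was assumed to vary like the other cells. List medians changed sign with the signals as deposited for regulators (-0.041), the respiratory chain (0.000564), the tricarboxylic acid cycle (0.083), hexose transport (0.10) and histones (0.00243), and with arrays centred on their medians for the respiratory chain (0.087), the tricarboxylic acid cycle (0.17), hexose transport (0.19) and histones (0.089). The share of glycogen and trehalose genes between the phases was -1.79% with that centring. The cause of these changes was not tested. The tests of differences were not run with 1 array per phase. Near the background of 3.01 signals limit what can be seen.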
